A study of Zea mays with 18 samples.

Results

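The comparison followed the roots of the maize inbred line T250, which has a low nitrogen use efficiency, over 4 d of hydroponic growth without nitrogen (N). It used 6 of the 18 samples of the series, the 3 arrays labelled T250 at 4 d and the 3 labelled T250 at 0 d, chosen by their titles alone. The 3 T250 arrays of 1 d shared the estimate of the spread. The second inbred line, Lo5, served for a test of whether its 4 d change differed from that of T250, and in some alternative fits. Seeds were soaked for 24 h and germinated for 4 d in the dark, and the seedlings then stood for 48 h in 0.5 mM CaSO4. The 0 d roots were taken at this point. The 4 d roots came from seedlings moved to a nutrient solution that held magnesium, potassium, sulfate, phosphate, iron and micronutrients but no N. Every sample pooled the roots of 3 seedlings, and the 3 samples of a group came from independent growth experiments. No plants kept on N were part of the series, so the lack of N, the supply of the other nutrients and 4 d of growth cannot be told apart. In whole roots, fewer cells of a type and less RNA per cell cannot be told apart either.

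Roots take up nitrate through low-affinity transporters of the NRT1 family and high-affinity NRT2 transporters, which work with the partner protein NAR2, and take up ammonium through AMT transporters. Nitrate is reduced to ammonium by nitrate and nitrite reductase, and glutamine synthetase and glutamate synthase bring the ammonium into amino acids. Plants without N are known to adjust these steps together with root growth, hormone metabolism and the uptake of other ions.

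Each RNA was labelled with 1 dye and hybridized to a custom maize array that held 39372 probes, 1 for each transcript drawn from the gene models of the line B73. A level here is the log2 processed intensity after subtraction of its 75th percentile on that array, so that 0 marks this percentile and 1 unit is a 2-fold difference. Over the series, an array had from 28868 to 32446 probes well above background and 0 saturated spots. Spots with a software mark for uneven pixels or outlying values were left out, which took 5.9% to 12.26% of the spots of the 0 d arrays and 4.12% to 4.28% of those of the 4 d arrays. To be tested, a transcript needed at least 2 unmarked spots on each day. It also needed a signal well above background on all 3 arrays of 0 d or all 3 of 4 d, marked spots included. These conditions were met by 25472 transcripts. Precision is limited by there being 3 arrays a group, or 2 where a spot was left out.

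The arrays did not fall cleanly by day. Across transcripts, the 0 d array of replicate 1 was most like the 1 d array of replicate 1 (Pearson r = 0.978), with which it shared a slide, and correlated at 0.915 and 0.922 with the 4 d arrays of replicates 1 and 2, against 0.905 and 0.884 with the other 0 d arrays. The 4 d array of replicate 3 correlated at 0.933 and 0.907 with the 0 d arrays of replicates 3 and 2, against 0.893 and 0.896 with the other 4 d arrays. These correlations run across transcripts, which are not independent, and carry no test. Both arrays were kept under their labels, and the results are also given without each of them where this ends a call or moves a value by over 1.5 times. The arrays of 0 d lay on slides 1, 4 and 5 and those of 4 d on slides 5, 2 and 3, so slide 5 alone held both days, with 1 array of each. The 0 d and 1 d arrays of the same number shared a slide (1, 4 or 5). The 0 d array of replicate 1 was the only one of the 6 arrays compared that was scanned on the first of 2 scan days.

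**Figure D1:**
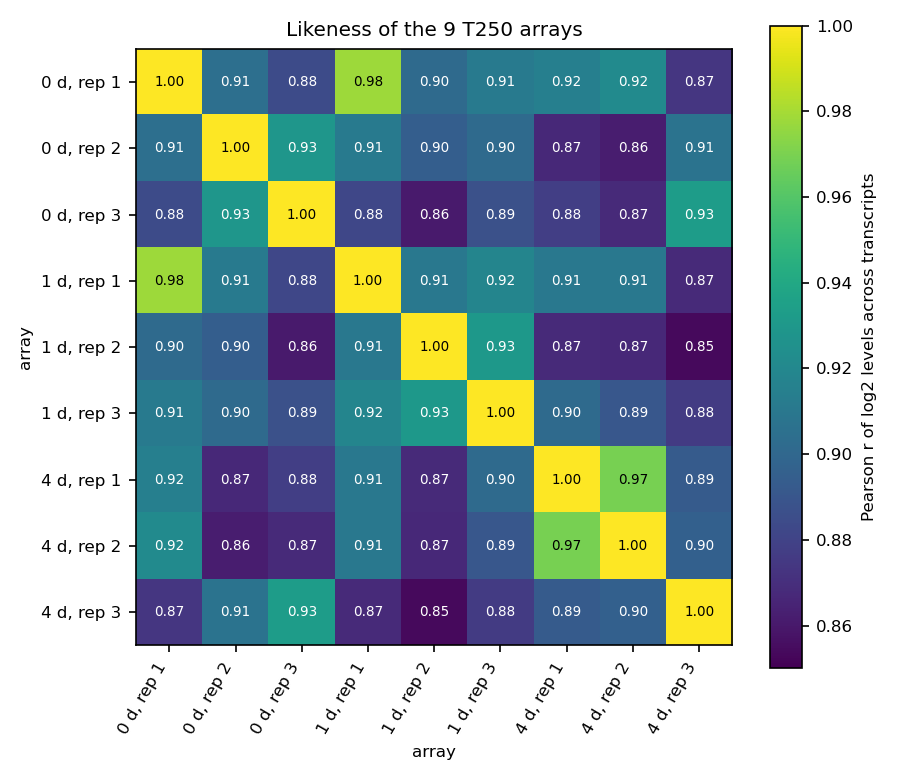
Pearson r of the log2 levels across transcripts for each pair of the 9 T250 arrays, by day and replicate (colour scale, r). The 0 d array of replicate 1 stands nearest to the 1 d array of replicate 1 (0.98), and the 4 d array of replicate 3 nearest to the 0 d array of replicate 3 (0.93).

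Markers of the tissue were read as levels summed over each list on the log2 scale. For the 5 root and Casparian strip markers the sum was 3.14 to 3.45 at 0 d and 3.47 to 4.18 at 4 d, and on each day 4 of the 5 were well above background on all arrays. The sum of the 8 shoot markers (chlorophyll-binding proteins and the small subunit of Rubisco) was −0.44 to 0.76 at 0 d and −0.63 to −0.11 at 4 d, with 3 of the 8 well above background on all arrays of each group. The sum of the 32 seed markers (mainly zeins, globulins and oleosins) was 0.67 to 1.82 at 0 d and 0.56 to 1.22 at 4 d. Of the 2, 3 and 12 members tested, 0 passed the threshold used below. The root hair transcript described as root hair specific 19 (GRMZM2G047656_T01) fell by 1.63, a call that could not be tested without the 0 d array of replicate 1.

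At the threshold of the study's methods, with p at most 0.01 before adjustment and at least a doubling or halving, a log2 ratio of size 1, 446 transcripts (1.75% of those tested) were upregulated and 558 (2.19%) downregulated after 4 d in limma's moderated test, 1004 (3.94%) in all. "Rose" and "fell" are used below only for transcripts past this threshold. Counts of calls in lists of transcripts with a gene symbol are to be read against these shares over all transcripts. Counts by sign are to be read against 11836 ratios above 0 and 13636 below 0 among the 25472 transcripts tested. After Benjamini-Hochberg adjustment over all transcripts tested, 2 (0.00785%) passed an adjusted p of 0.05, and both were upregulated. They encode a nitrate transporter 1.5 and a natural resistance-associated macrophage protein 1 (NRAMP1), a metal transporter. The calls had adjusted p-values of up to 0.216 in limma, so single transcripts other than these 2 are reported without support after adjustment, while 3703 transcripts stood at or below 0.05 before adjustment. Levels of the 0 d and 4 d arrays did not overlap for 1001 of the 1004 calls, against 22.5% of all transcripts tested. Calls were chosen by p and size on the same arrays, so this separation follows largely from the choice and adds no support. The change was at least 4-fold for 142 of the upregulated and 148 of the downregulated transcripts, and at least 16-fold for 17 and 27. With 3 arrays against 3, an exact permutation test cannot give a p below 0.1, so none was run for single transcripts.

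The split between up and down depended on the scaling. Upregulated transcripts made up 44.4% of the calls (446 of 1004), 57.4% with quantile normalization (579 of 1009) and 80.0% with normexp background correction on the median signals (377 of 471). The median log2 ratio of all transcripts was −0.05, 0.02 and 0.56 under the 3 settings. Under normexp a log2 ratio is therefore to be read against 0.56. Of the downregulated transcripts examined by name, 13 then had ratios above 0, 6 of them still below this median and 7 above it. Most calls lay nearer to 0 d after 1 d. Of 1003 calls with a level at 1 d, 864 were nearer to 0 d than to 4 d at that time, and the median transcript had made 9.45% of its 4 d change. Since the 1 d arrays lay on the slides of the 0 d arrays, nearness to 0 d and a shared slide cannot be told apart.

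With the slide as a fixed block, called the slide block below, 879 transcripts passed the threshold, of which 245 were among the 1004. Slides 2 and 3 held 1 T250 array each, the 4 d arrays of replicates 2 and 3, so the ratio in that fit rests on the 4 d array of replicate 1. Of 126 calls examined by name, 80 were lost. The calls named below that remained under the slide block are given in each paragraph.

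**Figure D2:**
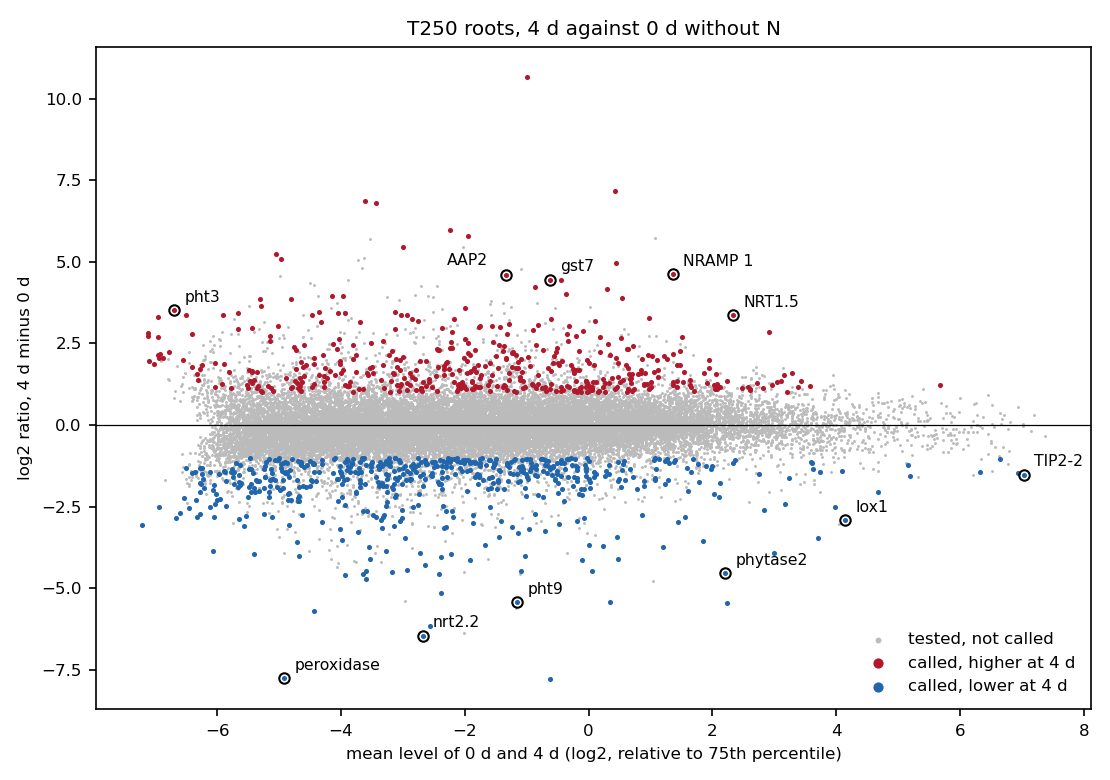
Log2 ratio of 4 d over 0 d in T250 roots (y axis) against the mean log2 level of both days relative to the 75th percentile (x axis), 1 point per transcript tested. The 446 upregulated and 558 downregulated transcripts are coloured, and calls occur from the dimmest transcripts to TIP2-2 at a mean level above 7.

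Of 3 nitrate transporters described in the study's tables, 1 rose, 1 fell and 1 was not called. Their names, where no symbol exists, are descriptions from the study's own tables. Since those tables were picked on these samples, 46.4% of the 677 described transcripts tested were called. Counts of described transporters here and below are no independent evidence of a direction. The transcript described as nitrate transporter 1.5 (GRMZM2G044851_T01), whose Arabidopsis counterpart moves nitrate into the xylem, had levels of 0.94, 0.65 and 0.36 at 0 d and 4.00, 4.15 and 3.87 at 4 d. It rose 10.2-fold (log2 ratio 3.36 ± 0.22, SE; adjusted p = 0.00543 in limma), with every 4 d array far above every 0 d array. The rise was complete after 1 d, when the arrays gave 3.72, 3.82 and 3.89. It kept the call under all 21 alternatives, the slide block among them, with adjusted p-values from 0.00117 to 0.301.

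The high-affinity transporter nrt2.2 (GRMZM2G010251_T01) went the other way. Its levels were 1.52 and −0.41 on the 0 d arrays used and −8.35, −5.61 and −3.77 at 4 d, and the marked 0 d spot that was left out read 1.92. It fell by 6.46 on the log2 scale (SE 1.32, adjusted p = 0.136 in limma). Only 2 of the 3 arrays of 4 d read well above background, so the size is not a measured one. The 1 d arrays, at −0.36, 0.81 and −1.56, still lay near those of 0 d. Maize NRT2 genes are near-identical in sequence, so the probe may read more than 1 of them. The fall could not be tested without the 0 d array of replicate 1, where 1 spot would be left, and was −7.53 without the 4 d array of replicate 3. The slide block kept it.

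NAR2.1 (GRMZM2G179294_T01), the partner protein of the NRT2 transporters, had all of its 0 d spots marked and was not tested. These spots read 0.55, 1.34 and 1.45, against −4.84, −3.67 and −0.71 at 4 d, so the groups did not overlap. Kept in the fit, they gave a log2 ratio of −4.19 (adjusted p = 0.141 in limma). NRT1.2 (GRMZM5G811593_T01), a low-affinity nitrate transporter, fell by 1.24 (SE 0.31, adjusted p = 0.172 in limma), from 0.52, 1.11 and 1.23 to −0.67, −0.42 and 0.23, and kept this call under 14 of 21 alternatives, but not under the slide block. Under normexp neither nrt2.2 nor NRT1.2 was called.

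Both probes named Nrt1.1 read high on the same 3 of the 6 arrays. For GRMZM2G041631_T01 the levels were −7.36, −3.60 and −3.04 at 0 d and −8.06, −8.44 and −3.03 at 4 d, and for GRMZM2G141491_T01 they were −7.35, −3.39 and −2.92 at 0 d and −7.32, −8.34 and −3.08 at 4 d. The 0 d array of replicate 1 thus read with the 4 d arrays of replicates 1 and 2, and the 4 d array of replicate 3 with the remaining 0 d arrays. Neither reached a level well above background on every array of a day, so they were not tested. NAR2.2 (GRMZM2G163494_T01) was well above background on 1 of the 6 arrays. Of the 6 nitrate transport members with a gene symbol on the array, 2 were tested, nrt2.2 and NRT1.2, and both fell.

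An ammonium transporter described as ammonium transporter 2 (GRMZM2G043193_T01) did not pass the threshold. Its levels were −1.92, −5.39 and −2.40 at 0 d and −0.28, −0.32 and −1.43 at 4 d, a log2 ratio of 2.56 ± 0.84 (SE; adjusted p = 0.239 in limma). The 4 d arrays were all above the 0 d arrays, but the 0 d array of replicate 2 lay far below the other 0 d arrays. This transcript was chosen after its values were seen.

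The enzymes of N assimilation that could be tested did not pass the threshold. Of the transcripts described in the study's tables, 2 belong to N assimilation, and 0 of them were tested. The study reports a plastidial glutamine synthetase, ZmGS2, as upregulated in T250 roots. The members counted next are those with a gene symbol. Of 16 members on the array, 11 were tested and 0 were called, against 3.94% of all transcripts, with a median log2 ratio of −0.19. The ratios ran from −0.87 for the glutamine synthetase gln3 (GRMZM2G046601_T01) to 0.33 for the asparagine synthetase asn1 (GRMZM2G074589_T01). Nitrate reductase (NNR1, GRMZM2G568636_T01) had levels of 0.42, 0.10 and 0.29 at 0 d and −0.43, 0.12 and −0.58 at 4 d, a ratio of −0.57 ± 0.26 (SE), and its groups overlapped. The 4 d levels of gln4 (GRMZM5G872068_T01), a cytosolic glutamine synthetase, were 3.83, 3.70 and 3.75, against 4.59, 3.80 and 3.98 at 0 d. Nitrite reductase (NIR, GRMZM2G079381_T01) had 2 marked 0 d spots and a ratio of −0.12 when they were kept. None of the other members tested was called either. The glutamine synthetases gln1 (GRMZM5G885867_T01), gln2 (GRMZM2G024104_T01) and GLN6 (GRMZM2G050514_T01) had ratios of −0.43, −0.34 and 0.01. Ferredoxin-dependent glutamate synthase (fgs1, GRMZM2G036609_T01) had −0.19, glutamate dehydrogenase (gdh1, GRMZM2G178415_T01) 0.09, asparagine synthetase asn2 (GRMZM2G093175_T01) 0.10 ± 0.82 (SE) and glutathione reductase (gsr1, GRMZM2G172322_T01), a member that does not assimilate N, 0.32. For gln5 (GRMZM2G036464_T01) every 0 d spot was marked, at 2.53, 2.62 and 2.92, and the 4 d spots read 2.18, 1.70 and 2.99. The probes of asn3 (GRMZM2G053669_T01) and GRMZM2G154182_T01 were above background on 0 of the 6 arrays, and the second gln1 probe (GRMZM2G098290_T01) on 1, so these were not tested.

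Of 8 described amino acid transporters tested, 1 rose and 1 fell (25%, against 46.4% of all described transcripts). The transcript described as amino acid permease 2 (GRMZM2G031167_T01), a proton-coupled amino acid importer, had levels of −2.50, −2.95 and −5.47 at 0 d and 1.31, 0.42 and 1.15 at 4 d. It rose 24.3-fold (log2 ratio 4.60 ± 0.75, SE; adjusted p = 0.104 in limma) and kept the call under all 21 alternatives. Its 1 d levels, between −3.89 and −2.55, lay within the range of 0 d. A transcript described as amino acid transporter 1 (GRMZM2G092391_T01) fell 2.14-fold, although its ratio was 0.49 under normexp and the call was just lost without the 0 d array of replicate 1, where the size missed the threshold. That described as LOB domain-containing protein 38 (GRMZM2G177110_T01), whose Arabidopsis counterpart is induced by nitrate and represses genes of N uptake, fell by 1.13 (SE 0.31, adjusted p = 0.192 in limma), from 4.45, 3.88 and 4.18 to 2.92, 2.96 and 3.24. It stood at −0.99 and lost the call without the 0 d array of replicate 1. Under the slide block only the permease kept its call. These 3 were chosen after their values were seen.

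**Figure D3:**
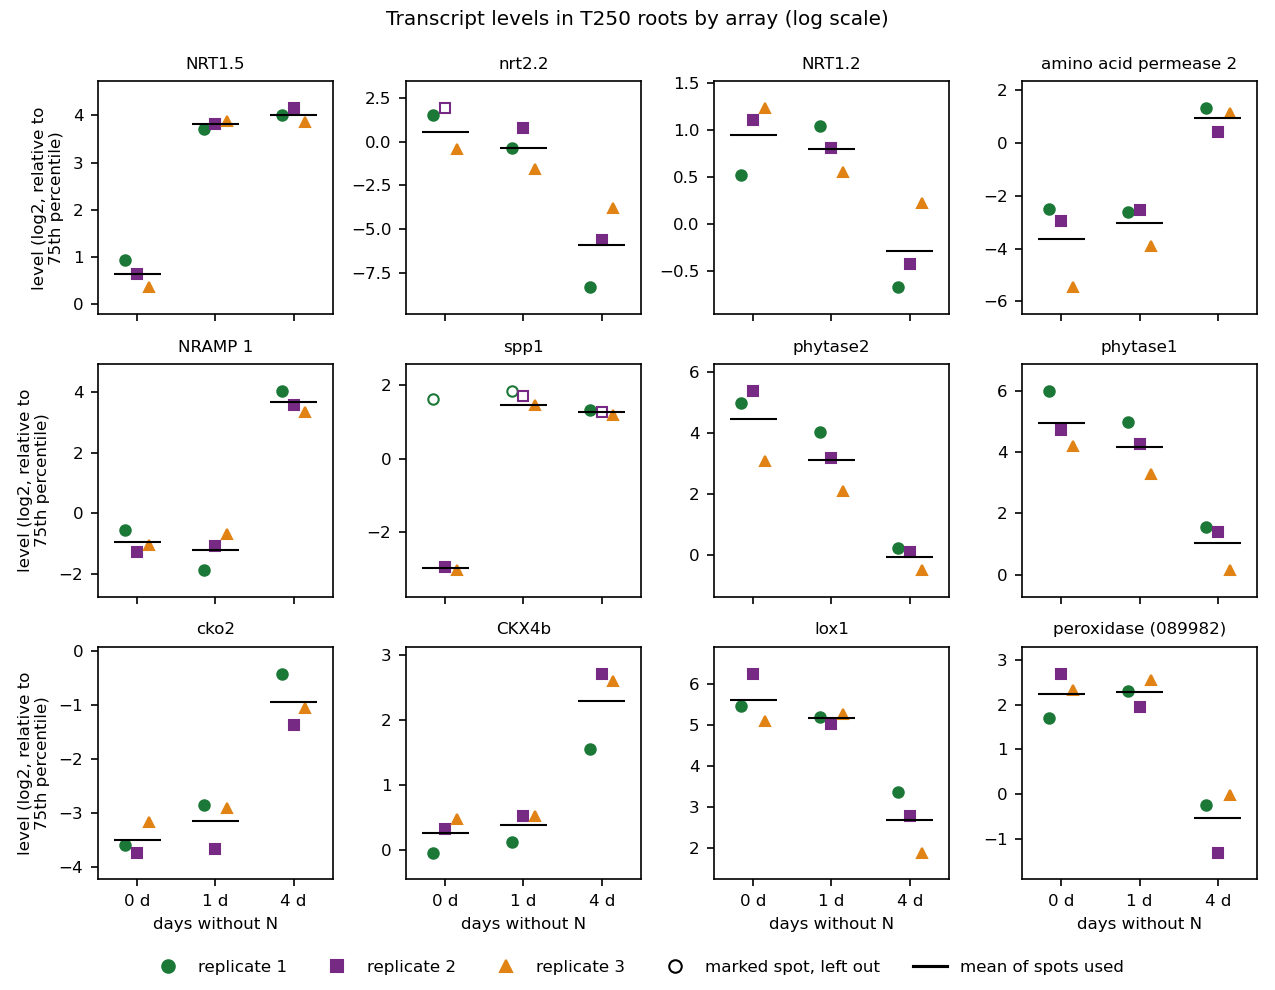
Log2 level above or below the array's 75th percentile (y axes, each with its own range) in each T250 array at 0, 1 and 4 d (x axes) for 12 named transcripts, with the mean of the spots used as a bar. NRT1.5 had reached its 4 d level by 1 d, NRAMP 1, amino acid permease 2 and the cytokinin oxidases had not, and for spp1 the marked 0 d spot left out lies at 1.60, with the 4 d spots.

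Among genes of phosphorus use, the phytases, which release phosphate from the phytate stored in the seed, fell. Levels of phytase2 (GRMZM2G043336_T01) were 4.99, 5.39 and 3.07 at 0 d and 0.23, 0.08 and −0.50 at 4 d, and fell by 4.55 (SE 0.67, adjusted p = 0.0966 in limma). Those of phytase1 (GRMZM2G140101_T01) were 5.99, 4.71 and 4.18 at 0 d and 1.55, 1.38 and 0.15 at 4 d, and it fell by 3.93 (SE 0.61, adjusted p = 0.0966 in limma). Neither overlapped between the days, and both kept the call under all 21 alternatives, the slide block included. Maize phytase genes are close copies, so the probes may share signal.

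Of 8 phosphate transporters tested, 1 rose and 1 fell (25%, against 3.94% of all transcripts). The level of pht9 (GRMZM2G070087_T01) was 0.92 and 2.21 on the 0 d arrays used and −5.04, −3.63 and −2.94 at 4 d, and it fell by 5.44 (SE 1.26, adjusted p = 0.176 in limma), and the marked 0 d spot read 1.18. It could not be tested without the 0 d array of replicate 1. The probe of pht3 (GRMZM2G045473_T01) was not well above background on any 0 d array and read −5.30, −5.94 and −3.55 at 4 d, at least 2.85-fold higher. Such a bound sets the mean of the brighter day against the mean, over the dim arrays, of the higher of the probe's own level and the lowest level of any probe well above background on that array. The transcript described as SPX domain gene 1 (GRMZM2G024705_T01), part of phosphate signalling in Arabidopsis, fell by 1.27 (SE 0.30, adjusted p = 0.157 in limma) but had a ratio of 0.62 under normexp. None of these 3 calls was kept under the slide block.

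Of 8 described metal and magnesium transporters tested, 2 rose and 3 fell (62.5%, against 46.4% of all described transcripts). NRAMP1 (GRMZM2G168747_T01) had levels of −0.54, −1.28 and −1.05 at 0 d and 4.05, 3.58 and 3.37 at 4 d. It rose 24.6-fold (log2 ratio 4.62 ± 0.36, SE; adjusted p = 0.0104 in limma), with a wide gap between the days, and its 1 d levels of −1.87, −1.07 and −0.69 were those of 0 d. The call held under all 21 alternatives, including the slide block, with adjusted p-values from 0.000985 to 0.323. The zinc transporter ZIP4 (GRMZM2G111300_T01) rose by 1.56 ± 0.31 (SE; adjusted p = 0.125 in limma), a call lost under the slide block.

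Both transcripts described as vacuolar iron transporter family proteins fell. GRMZM2G001035_T01 went from 0.81, 0.25 and 0.83 to −3.58, −3.24 and −0.84, and fell by 3.18 (SE 0.68), and GRMZM2G463462_T01 fell by 1.25 (SE 0.23). A transcript described as copper transporter 1 (GRMZM2G042412_T01) fell by 4.02 (SE 1.01), with 0 d levels as far apart as −0.80 and −4.93 and 1 of the 3 arrays of 4 d well above background. It kept this call under 12 of 20 alternatives, was at −3.08 with no call without the 0 d array of replicate 1, and had a ratio of 0.07 under normexp. The nicotianamine synthase nas1 (GRMZM2G385200_T01), which makes the precursor of the iron-binding phytosiderophores, had levels of 2.88 and −3.41 on the 0 d arrays used and −8.30, −3.04 and −5.63 at 4 d. Its log2 ratio of −5.39 ± 2.19 (SE; adjusted p = 0.335 in limma) did not pass the threshold, and the days overlapped. Only GRMZM2G001035_T01 stayed called under the slide block. Transcripts of this paragraph were chosen after their values were seen.

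Of 14 potassium transporters tested, 1 was called (7.14%, against 3.94% of all transcripts). HAK1 (GRMZM2G093826_T01), a high-affinity potassium importer, fell by 1.44 (SE 0.33, adjusted p = 0.164 in limma), from 4.47, 3.99 and 4.92 to 3.48, 2.61 and 2.98. Among 10 transcripts of sulfur transport and assimilation 1 was called (10%), aprl4 (GRMZM2G159535_T01), a protein like the reductase of activated sulfate, which rose by 1.59 ± 0.41 (SE). Of 20 aquaporins 0 rose and 2 fell (10%), with a median log2 ratio of −0.50 and 14 members below 0. The vacuolar water channel TIP2-2 (GRMZM2G056908_T01) had levels of 8.02, 7.77 and 7.57 at 0 d and 6.25, 6.30 and 6.24 at 4 d, and fell by 1.52 (SE 0.28, adjusted p = 0.116 in limma) with no overlap. PIP2-4 (GRMZM2G154628_T01), a water channel of the plasma membrane, fell by 2.06 (SE 0.43), a call that could not be tested without the 0 d array of replicate 1. Under quantile normalization the same 0 and 2 aquaporins were counted, under normexp 2 rose and 2 fell, and without the 4 d array of replicate 3 the falls numbered 3. The slide block ended all 4 of these calls.

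Many of the transcripts that follow are named by descriptions from the study's tables, and most of these were chosen after their values were seen. These tables hold transcripts picked on these samples, and 46.4% of the 677 described transcripts tested were called (153 up, 161 down). The counts within described families are therefore no independent evidence of a direction.

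Of 11 described class III peroxidases, enzymes that oxidize phenolics in the wall, 0 rose and 5 fell, with a median log2 ratio of −1.38, 5 fell without the 0 d array of replicate 1, and 6 without the 4 d array of replicate 3. Under normexp 3 of them fell. The peroxidase GRMZM2G089982_T01 went from 1.70, 2.69 and 2.32 to −0.25, −1.30 and −0.02, and fell by 2.76 (SE 0.40, adjusted p = 0.0966 in limma), and did so under all 21 alternatives. The peroxidases GRMZM2G382379_T01 and GRMZM2G085967_T01 fell by 1.68 (SE 0.37) and 1.23 (SE 0.25). GRMZM2G138450_T01 and GRMZM2G150731_T01 were not well above background on any 4 d array and were at least 46.7-fold and 2.53-fold lower there. For GRMZM2G150731_T01 the ratio was 1.07 under normexp. Of the 10 laccases and peroxidases that carry a gene symbol, only PER66 (GRMZM2G133475_T01) fell, by 2.76 (SE 0.70), a call lost without the 0 d array of replicate 1, at −2.47, and 9 of the 10 had ratios below 0. All of these peroxidases but GRMZM2G085967_T01 and PER66 kept their calls under the slide block.

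Of 7 described transcripts of lignin synthesis, 0 rose and 2 fell. The transcript described as laccase 7 (GRMZM2G140527_T01), an oxidase of lignin precursors, went from 0.20, 0.49 and 0.08 to −2.36, −2.11 and −1.21, and fell by 2.14 (SE 0.33, adjusted p = 0.0966 in limma). A cinnamoyl-CoA reductase (GRMZM2G017285_T01), an enzyme of the branch leading to lignin, fell by 4.30 (SE 0.63), and a hydroxycinnamoyl transferase (GRMZM2G178769_T01), an enzyme of the same pathway, by 2.64 (SE 0.41). Of 9 lignin genes with a symbol, however, 0 were called and the median ratio was −0.35. The acyltransferase of the HXXXD type GRMZM2G032276_T01 was at least 8.88-fold lower at 4 d, where its probe was not well above background, but had a ratio of 0.46 under normexp. Another of this type, GRMZM5G800407_T01, rose by 2.24 ± 0.27 (SE) on 2 arrays of 0 d and could not be tested without that of replicate 1. All 5 calls of this paragraph held under the slide block.

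Of 7 described expansins and xyloglucan enzymes, which loosen the wall, 0 rose and 3 fell. The xyloglucan endotransglucosylase/hydrolase 32 (GRMZM2G388684_T01), which cuts and rejoins xyloglucan chains, went from 2.93, 2.87 and 3.41 to 1.42, 0.41 and 1.07, and fell by 2.11 (SE 0.34, adjusted p = 0.104 in limma). A transcript described as expansin B2 (GRMZM2G094990_T01) fell by 1.77 (SE 0.34). Of the 9 expansins with a symbol, expB4 (GRMZM2G154178_T01) fell by 2.47 (SE 0.67), and 7 of the 9 had ratios below 0. Without the 0 d array of replicate 1 or the 4 d array of replicate 3 this call was lost, at −2.24 and −2.56. A second expansin B2 probe (GRMZM2G100931_T01) was at least 2.61-fold lower at 4 d, where it was not well above background, yet had a ratio of 0.98 under normexp and lost the call without either of these arrays, at −1.51 and −2.26. Of 7 described pectin enzymes tested, 1 rose and 3 fell (57.1%, against 46.4% of all described transcripts), and under normexp 1 rose and 0 fell. The riser was the pectin lyase-like transcript GRMZM2G037411_T01, by 2.15 ± 0.34 (SE; adjusted p = 0.0976 in limma), while another described as pectin lyase-like was among those that fell. Cellulose synthases with a symbol gave 0 calls among 6, but of 2 described transcripts of cellulose synthesis tested, 0 rose and 1 fell, also under normexp. Of the calls given here by ID, that of the xyloglucan enzyme alone was kept under the slide block.

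Of 7 cytokinin oxidases tested, enzymes that degrade the hormone, 2 rose and 0 fell. Of 18 members of the cytokinin list 3 rose and 0 fell (16.7% called, against 3.94% of all transcripts), while the median was −0.16. Under quantile normalization and under normexp 4 were called, with 1 down. The cytokinin oxidase cko2 (GRMZM2G050997_T01) had levels of −3.60, −3.74 and −3.17 at 0 d and −0.41, −1.36 and −1.06 at 4 d. It rose 5.9-fold (log2 ratio 2.56 ± 0.34, SE; adjusted p = 0.0966 in limma) and under all 21 alternatives. CKX4b (GRMZM2G024476_T01), another of these oxidases, rose by 2.03 ± 0.34 (SE; adjusted p = 0.104 in limma), from −0.04, 0.33 and 0.48 to 1.55, 2.71 and 2.60. Neither overlapped between the days, and both were near the 0 d level at 1 d. The phosphotransfer protein HP3 (GRMZM2G451604_T01), a relay of the cytokinin signal, rose by 1.34 ± 0.30 (SE). The response regulators RR4, RR6 and RR7, which cytokinin induces in maize, had ratios of −0.86, −0.46 and −0.73 and were not called. Of the 3 calls, that of cko2 remained under the slide block.

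Auxin genes gave 2 calls among 41 (4.88%, against 3.94% of all transcripts), both upward. Of the 41 ratios 29 were above 0 (median 0.34), against 11836 of 25472 over all transcripts. AUX36 (GRMZM2G359924_T01), a repressor of the Aux/IAA family, rose by 2.93 ± 0.55 (SE; adjusted p = 0.117 in limma), from levels of −5.84, −4.15 and −3.76 to a mean of −1.65 ± 0.31 (SD), with 2 of the 3 arrays of 0 d well above background. AUX18 (GRMZM2G104176_T01), of the same family, rose by 1.18 ± 0.27 (SE), and just missed the fold threshold at 0.99 without the 4 d array of replicate 3. The transcript described as auxin response factor 2 (GRMZM2G352159_T01), a regulator of auxin target genes, rose by 1.04 ± 0.21 (SE). The 2 transcripts described as SAUR-like, a family of small proteins induced by auxin, moved apart. GRMZM2G451037_T01 fell by 1.90 (SE 0.26) but had a ratio of 0.59 under normexp, and GRMZM2G343365_T01 was at least 1.78-fold higher at 4 d after not being well above background on any 0 d array. GRMZM2G451037_T01 alone kept its call under the slide block.

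Of 16 TIFY repressors, which hold back the jasmonate response, 2 rose and 0 fell (12.5% called, against 3.94% of all transcripts). Their median was 0.27, and 10 ratios were above 0. Without the 0 d array of replicate 1, without the 4 d array of replicate 3 and under normexp, 1 of them rose. TIFY2 (GRMZM5G838098_T01) rose by 1.82 ± 0.42 (SE; adjusted p = 0.153 in limma), from −3.01, −3.82 and −2.90 to −1.68, −1.19 and −1.38. Of 13 genes of jasmonate synthesis, only lox1 (GRMZM2G156861_T01), a lipoxygenase, was called, and a further 1 rose without either of these arrays or under normexp. Its levels went from 5.46, 6.25 and 5.09 to 3.36, 2.78 and 1.89, and fell by 2.92 (SE 0.42, adjusted p = 0.0966 in limma) with no overlap. The cytochrome P450 94C transcript GRMZM2G396248_T01, whose Arabidopsis counterpart inactivates jasmonoyl-isoleucine, rose by 2.14 ± 0.31 (SE; adjusted p = 0.0966 in limma). For ethylene, an ACC synthase (GRMZM2G164405_T01), the enzyme that makes its precursor, rose by 1.52 ± 0.43 (SE), a call lost without the 0 d array of replicate 1 or the 4 d array of replicate 3. A gibberellin-regulated family protein (GRMZM2G107003_T01) rose by 3.60 ± 0.60 (SE), from −3.08, −3.09 and −5.21 to 0.04, 0.27 and −0.88. The slide block ended every call of this paragraph.

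Of 10 UDP-glycosyltransferases tested and described in the study's tables, which attach sugars to hormones and secondary metabolites, 7 rose and 1 fell, with a median log2 ratio of 1.84. Without the 0 d array of replicate 1, 5 of the 7 that could still be tested rose and 0 fell, and without the 4 d array of replicate 3 the numbers were 3 and 1. A member of this family (GRMZM2G078465_T01) rose by 3.19 ± 0.53 (SE; adjusted p = 0.104 in limma), from −2.44, −0.70 and −1.33 to 2.35, 1.82 and 0.94, under all 21 alternatives. GRMZM2G135722_T01 and GRMZM2G061289_T01 rose by 3.24 ± 0.88 and 2.32 ± 0.59 (SE), and GRMZM2G304712_T01 and GRMZM2G173315_T01 by 1.89 ± 0.42 and 1.89 ± 0.30. Without the 4 d array of replicate 3 the first and second of these lost the call, at 3.31 and 2.35, and the last rested on 2 arrays of each day. GRMZM2G055446_T01 fell by 1.42 (SE 0.39), on 2 arrays of 0 d. GRMZM2G078465_T01 and GRMZM2G173315_T01 were still called under the slide block.

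Among 24 glutathione transferases with a symbol, enzymes that join glutathione to reactive compounds, 2 rose and 1 fell (12.5%, against 3.94% of all transcripts). Under normexp 4 of the 24 rose and 0 fell. The largest ratio among the 24 was that of gst7 (GRMZM2G028556_T01), from −3.13, −2.71 and −2.74 at 0 d to 0.65, 2.76 and 1.39 at 4 d. It rose 22-fold (log2 ratio 4.46 ± 0.75, SE; adjusted p = 0.105 in limma), and the 4 d arrays were more spread than those of 0 d. GST25 (GRMZM2G161905_T01) rose by 1.97 ± 0.46 (SE), and gst12 (GRMZM2G096269_T01) fell by 1.00 (SE 0.28), with a ratio of 0.37 under normexp and no call without the 0 d array of replicate 1, at −1.06. The zinc-binding dehydrogenase GRMZM2G125196_T01 rose further than any of these. Not well above background on any 0 d array, it read −0.68, 1.51 and −1.36 at 4 d and was at least 69.6-fold higher there (adjusted p = 0.104 in limma). A MATE efflux protein (GRMZM2G132995_T01), of a family that exports organic compounds, rose by 1.96 ± 0.27 (SE) under all 21 alternatives. This call and that of GST25 were kept under the slide block, and the others were not.

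Cytochrome P450 transcripts, which encode oxidases of many small molecules, were split evenly, with 4 up and 4 down of 13 described, and the counts were the same without the 0 d array of replicate 1 and without the 4 d array of replicate 3, but 2 and 1 under normexp. A member of the CYP81D group (GRMZM2G069722_T01) rose 9.6-fold (log2 ratio 3.26 ± 0.52, SE; adjusted p = 0.1 in limma), from −3.92, −3.55 and −3.95 to −0.95, −0.57 and −0.12. A second CYP81D member (GRMZM2G090432_T01), well above background on 1 of the 3 arrays of 0 d, rose by 3.65 ± 0.70 (SE), and CYP709B2 (GRMZM2G075461_T01) by 2.26 ± 0.31. Transcripts described as CYP93D1, CYP87A6, CYP78A10 and CYP710A1 (GRMZM2G167336_T01, GRMZM2G135536_T01, GRMZM2G470442_T01 and AC233853.1_FGT003) fell by 3.17 (SE 0.88), 2.50 (SE 0.47), 2.22 (SE 0.59) and 1.80 (SE 0.41). GRMZM2G167336_T01 lost the call without the 0 d array of replicate 1, at −3.36, and for AC233853.1_FGT003 the ratio was 0.26 under normexp. In benzoxazinoid synthesis, a defence pathway of grasses, bx1 (GRMZM2G085381_T01), its first enzyme, was at least 1.49-fold higher at 4 d, the only call among 7 members. GRMZM2G069722_T01, CYP709B2 and CYP93D1 kept their calls under the slide block.

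All 5 described members of the MAP kinase cascade that were tested rose, in tables of which 46.4% was called, with a median log2 ratio of 1.54, 5 without the 0 d array of replicate 1, 4 without the 4 d array of replicate 3, and 4 under normexp. The cascade passes signals from receptors to the nucleus. They are a MAP kinase kinase kinase (GRMZM2G173965_T01, 1.75 ± 0.31, SE), MAP kinase kinase 7 (GRMZM2G344388_T01, 1.54 ± 0.37), 2 described as MAP kinase 3 (GRMZM2G017792_T01, 1.84 ± 0.34, and MPK4, GRMZM2G053987_T01, 1.31 ± 0.25) and MAP kinase substrate 1 (GRMZM2G369742_T01, 1.38 ± 0.30). Levels of the MAP kinase kinase kinase were 0.81, 1.06 and 1.34 at 0 d and 2.59, 2.75 and 3.13 at 4 d, without overlap (adjusted p = 0.115 in limma). Of 4 MAP kinases with a symbol, MPK4 alone was called, and mek1, mpk6 and MPK17 had ratios of −0.38, 0.58 and 0.91. MAP kinase kinase 7 was the member lost without the 4 d array of replicate 3, at 1.38. Under the slide block none of the 5 was called.

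Of 14 described receptor-like kinases 5 rose and 2 fell, against 4 and 0 without the 0 d array of replicate 1 and 3 and 1 under normexp. NSP-interacting kinase 1 (GRMZM2G349665_T01), known in Arabidopsis from antiviral defence, went from 0.08, −0.04 and 0.12 to 1.57, 1.62 and 1.75, with little spread on either day. It rose by 1.60 ± 0.19 (SE; adjusted p = 0.0966 in limma) under all 21 alternatives. A PR5-like receptor kinase (GRMZM2G079219_T01), not well above background on any 0 d array, was at least 1.67-fold higher at 4 d. The ubiquitin ligases of the RING type GRMZM2G044773_T01 and GRMZM2G428179_T01 differed in direction. The former rose by 2.45 ± 0.30 (SE; adjusted p = 0.0966 in limma) and the latter was at least 1.86-fold lower at 4 d, though at 1.19 under normexp. This last call was the one of the paragraph that the slide block ended.

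Calls among transcription factors with a symbol are given against 1.75% up and 2.19% down over all transcripts. Lists with 0 calls were the homeobox and WOX (27 tested), MADS (25), SBP (16), HSF, GLK and trihelix (12), LBD (8), and TCP and NLP factors (7). Of 23 NAC factors with a symbol 2 rose (8.7%), 0 fell and 19 had ratios above 0. In this list 1 rose without the 0 d array of replicate 1 or without the 4 d array of replicate 3. Of 7 described NAC factors 5 rose and 0 fell (71.4%). This count is to be read against the 46.4% of the 677 described transcripts that were called, 153 of them up. SNAC1 (GRMZM2G347043_T01) rose by 1.09 ± 0.31 (SE) and was the member lost in both cases, at 1.14 and 0.78. GRMZM2G114850_T01 (NAC domain protein 1), GRMZM2G079632_T01, GRMZM2G439903_T01 (NAC domain protein 61) and GRMZM2G166721_T01 (NAC domain protein 75) rose by 1.53 ± 0.30, 1.43 ± 0.29, 1.75 ± 0.41 and 1.02 ± 0.28 (SE). The last of these was at 0.93 without the 4 d array of replicate 3 and then lost the call. The slide block ended each of these NAC calls.

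WRKY, bHLH and bZIP factors with a symbol rose in 2 of 15 (13.3%), 3 of 28 (10.7%) and 3 of 32 cases (9.38%), and 0 fell in each list. Of 10 described bHLH factors, however, 3 rose and 1 fell (40%, against 46.4% of all described transcripts). WRKY30 (GRMZM2G143204_T01) had levels of 0.74 and 0.74 on the 0 d arrays used and 2.03, 2.25 and 1.99 at 4 d, a rise of 1.35 ± 0.23 (SE; adjusted p = 0.116 in limma). WRKY42 (GRMZM5G812272_T01) rose by 1.04 ± 0.31 (SE). Without the 0 d array of replicate 1, 0 WRKY factors with a symbol were called among 13 that could be tested. The bHLH factor bHLH123 (GRMZM2G369629_T01) rose by 2.51 ± 0.44 (SE; adjusted p = 0.11 in limma), from −5.29, −4.89 and −4.13 to −2.04, −2.45 and −2.30, and was well above background on 2 of the 3 arrays of 0 d. bZIP108 (GRMZM2G033230_T01) rose by 2.26 ± 0.52 (SE), from −1.19, −3.19 and −3.19 to −0.20, 0.12 and −0.70, while its 1 d mean was already −1.08. Among factors with a symbol, the bHLH calls were 1 without the 0 d array of replicate 1 and under normexp, and the bZIP calls were 2 under normexp. Of those named here, bHLH123 was called under the slide block.

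Of 41 MYB factors with a symbol 1 rose and 1 fell (4.88%). Myb36 (GRMZM2G056407_T01), well above background on 2 of the 3 arrays of 0 d, rose by 2.74 ± 0.51 (SE), and MYBR21 (GRMZM2G079458_T01) fell by 1.97 (SE 0.56). The counts were 2 and 2 without the 0 d array of replicate 1, and MYBR21 lost its call without the 4 d array of replicate 3, at −2.01. The transcripts described as myb domain proteins 79 (GRMZM2G027697_T01) and 112 (GRMZM2G070849_T01) rose by 2.44 ± 0.42 and 2.01 ± 0.36 (SE), the latter under all 21 alternatives. GRAS76 (GRMZM2G028438_T01), described as SCARECROW-like 8, rose by 1.70 ± 0.28 (SE; adjusted p = 0.104 in limma), from 0.11, −0.31 and 0.18 to 1.60, 1.60 and 1.86. WUSCHEL related homeobox 11 (GRMZM2G314064_T01), a factor of crown root growth in rice, rose by 1.94 ± 0.49 (SE) but was not called without the 0 d array of replicate 1, at 1.83. The AP2/ERF factor EREB60 (GRMZM2G131266_T01) fell by 3.19 (SE 0.64, adjusted p = 0.125 in limma), from −2.63, −2.23 and −2.37 to −4.60, −7.31 and −4.90, of which 2 were well above background. It was the only call among 25 ERF and DREB factors with a symbol (4%). Among these 25, 2 rose and 1 fell without the 0 d array of replicate 1, and without the 4 d array of replicate 3, 1 rose and 2 fell. Outside this list, transcripts described as ethylene responsive element binding factor 1 rose, with ratios of 1.28 and 1.18. HSF6 (GRMZM2G059851_T01), a heat shock factor, rose by 1.52 ± 0.43 (SE), a call lost without the 0 d array of replicate 1, at 1.48. Of the calls given here by ID, the slide block kept those of myb domain protein 112, EREB60 and HSF6.

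Of the described chaperones 4 of 4 tested fell, with a median log2 ratio of −1.37 (3 without the 0 d array of replicate 1, and 1 under normexp). An HSP70 family protein (GRMZM2G161035_T01) went from a mean of 0.84 ± 0.24 (SD) to levels of −1.23, −0.71 and −0.56, and fell by 1.67 (SE 0.26, adjusted p = 0.0966 in limma), under all 21 alternatives. The other HSP70 (GRMZM5G805493_T01) and the DnaJ proteins (GRMZM2G031637_T01 and AC198357.3_FGT002) fell by 1.07 (SE 0.29), 1.60 (SE 0.24) and 1.15 (SE 0.24). GRMZM5G805493_T01 was the member lost without the 0 d array of replicate 1, at −1.08. The 10 heat shock proteins with a symbol gave 0 calls and a median of 0.11. GRMZM2G161035_T01 and GRMZM2G031637_T01 were the calls kept under the slide block.

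Of 26 cell cycle genes (3.85% called, against 3.94% of all transcripts) only MCM6 (GRMZM2G021069_T01), a subunit of the helicase of DNA replication, was called and fell by 1.75 (SE 0.37, adjusted p = 0.135 in limma), from −1.47, 0.03 and −0.33 to −2.56, −2.25 and −2.20. MCM7, another subunit (GRMZM2G065205_T01), had a ratio of −0.79, and without the 0 d array of replicate 1 the falls numbered 2. Of 19 ribosomal proteins and 6 histones 0 were called. The tubulins tubg1 (GRMZM2G073888_T01) and tub4 (GRMZM2G066191_T01), parts of the microtubules, moved apart, the former rising by 1.32 ± 0.29 (SE) and the latter falling by 1.51 (SE 0.44). No call of this paragraph remained under the slide block.

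In carbon metabolism the sucrose phosphate phosphatase spp1 (GRMZM2G055489_T01), which completes sucrose synthesis, was called with a log2 ratio of 4.22 ± 0.31 (SE; adjusted p = 0.0966 in limma), but on 2 arrays of each day. The 0 d levels used were −2.93 and −3.02, and the marked 0 d spot left out, on the array of replicate 1, read 1.60, as high as the 4 d levels of 1.32 and 1.19. The call was lost with marked spots kept. The polyol transporters GRMZM2G157057_T01 and GRMZM5G862325_T01, importers of sugar alcohols and sugars, fell by 4.46 (SE 0.76) and 1.52 (SE 0.36), among 6 described transcripts of sugar transport and invertase of which 0 rose and 3 fell. The third, AC212023.4_FGT004, described as an inhibitor of invertase or pectin methylesterase, fell by 1.41. GRMZM2G157057_T01 was well above background on 2 of the 3 arrays of 4 d. In the absence of the 0 d array of replicate 1 GRMZM2G157057_T01 could not be tested, GRMZM5G862325_T01 lost the call at −1.41 and 1 of 5 fell, and under normexp 0 fell. An ADP/ATP carrier (GRMZM2G420988_T01), which exchanges nucleotides across the mitochondrial membrane, rose by 3.36 ± 0.53 (SE; adjusted p = 0.0997 in limma), from −4.65, −5.61 and −3.61 to −1.58, −1.03 and −1.17. GAPC3 (GRMZM2G071630_T01), a glycolytic dehydrogenase, fell by 1.80 (SE 0.31), a call lost with marked spots kept. Under the slide block spp1 alone of these was called.

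**Figure D4:**
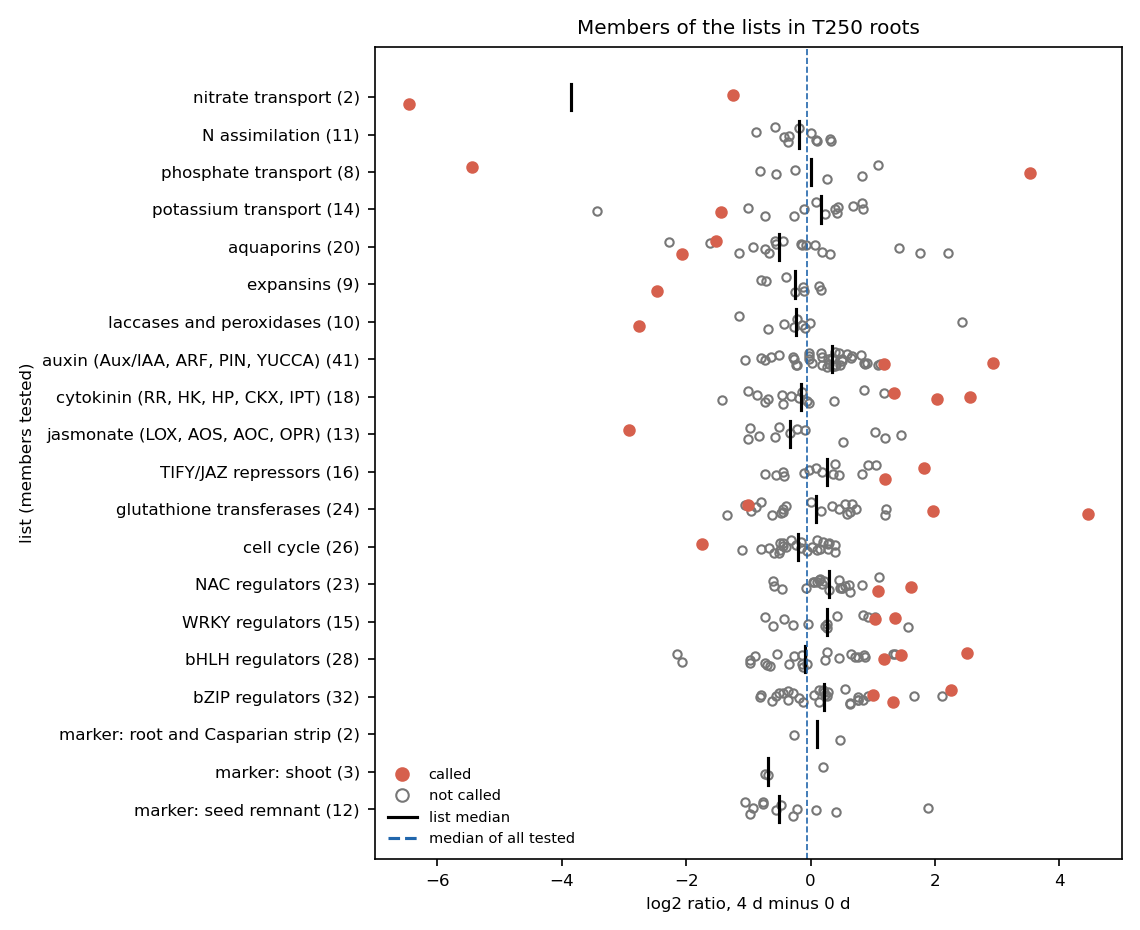
Log2 ratio of 4 d over 0 d (x axis) of each member tested in 20 lists of transcripts with a gene symbol (y axis, number tested in brackets), filled where called, with the median of each list as a bar and the median of all transcripts tested (−0.05) as a dashed line. Members of N assimilation stay between −0.87 and 0.33, while nrt2.2, pht9 and gst7 lie far from their lists.

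Large ratios also came from transcripts with no name in the tables used. GRMZM2G024996_T01 had a log2 ratio of 10.67 ± 2.04 (SE; adjusted p = 0.125 in limma), with levels of −7.52, −7.32 and −4.15 at 0 d and 3.91 and 4.77 on the 4 d arrays used. The marked 4 d spot left out read 1.43, and only 1 of the 3 arrays of 0 d was well above background, so the size is not a measured one. GRMZM2G336694_T01 fell by 7.79 (SE 1.28, adjusted p = 0.104 in limma), from 4.04, 5.88 and −0.11 to −5.32, −3.53 and −4.72. The days did not overlap for either. The glucanase geb1 (GRMZM2G065585_T01), a wall enzyme of the pathogenesis-related type, was called at 7.19 ± 0.99 (SE) from 2 arrays a day. Its marked 0 d spot, on the array of replicate 3, read 3.01, within the 4 d levels of 2.56 and 5.46, and the call was lost with marked spots kept. Under the slide block GRMZM2G336694_T01 lost its call. These 3 were chosen after their values were seen.

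A change seen in T250 was compared with that of Lo5 between its own 0 d and 4 d arrays by the test of the difference itself. Over 24448 transcripts 0 of these differences passed Benjamini-Hochberg adjustment in limma, where the lowest adjusted p was 0.098 and 1491 had an unadjusted p of up to 0.05. Of 110 named calls with a ratio in both lines, 100 had the same sign in Lo5. The share with the same sign over all transcripts was not computed. Many of the 110 are named from the study's tables, which hold transcripts picked on both lines. The count is therefore no evidence of a shared response. The 110 were chosen for their values in T250, so a smaller size in Lo5 is no result. Leaving out the 0 d array of replicate 1 or the 4 d array of replicate 3 of T250 brought 93 and 104 differences past an adjusted p of 0.05.

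NRT1.5 had a ratio of 0.70 in Lo5, 2.66 below that in T250 (95% interval 0.92 to 4.39, adjusted p = 0.683 in limma). Amino acid permease 2 had 0.48 in Lo5, a difference of 4.12 (1.99 to 6.26, adjusted p = 0.492 in limma). The P450 GRMZM2G069722_T01 had 0.54 in Lo5 against 3.26 in T250, a difference of 2.72 (1.89 to 3.55, adjusted p = 0.109 in limma). For the transcript described as a Core-2/I-branching glycosyltransferase (GRMZM2G153240_T01), which fell by 2.93 (SE 0.43) in T250, the ratio in Lo5 was 0.22 and the difference −3.15 (−4.08 to −2.22, adjusted p = 0.109 in limma). EREB60 and HAK1 had ratios of 1.27 and 0.64 in Lo5, where the differences were −4.46 (−6.31 to −2.61, adjusted p = 0.26 in limma) and −2.08 (−3.33 to −0.83, adjusted p = 0.603 in limma). The gibberellin-regulated transcript GRMZM2G107003_T01 went the same way in both lines, with 7.53 in Lo5 against 3.60. Among these T250 calls, HAK1 and GRMZM2G107003_T01 were lost under the slide block.

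**Figure D5:**
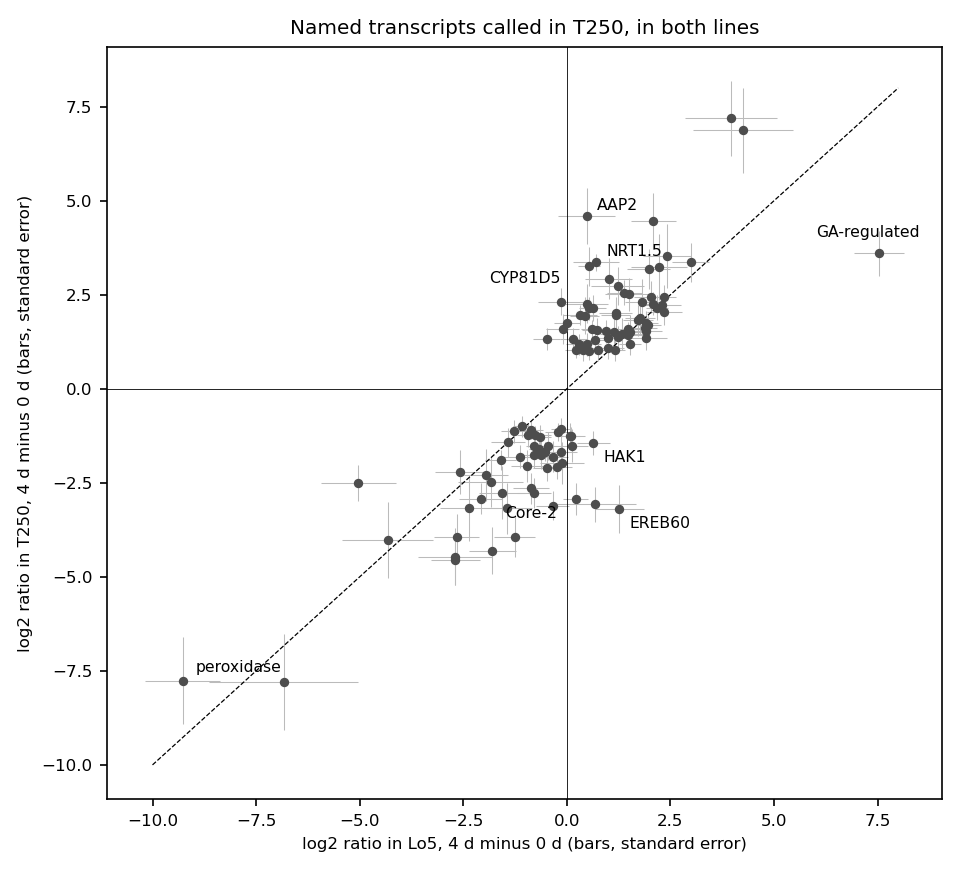
Log2 ratio of 4 d over 0 d in T250 (y axis) against that in Lo5 (x axis) for the 110 named transcripts called in T250 that have a value in both lines, with standard errors as bars and equal ratios as a dashed line. Of these, 100 have the same sign in both lines, a count with no share over all transcripts beside it. EREB60 and HAK1 are among the 10 that do not.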

How the data were processed

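RNA from roots of the maize inbred lines T250 and Lo5 at 0, 1 and 4 d without N was hybridized to 18 arrays, 3 per line and day. The authors deposited single-dye intensity values from Agilent Feature Extraction 10.5.1.1, whose processed signal is background-subtracted, and a table of the same intensity values scaled to a common 75th percentile. Replicates are separate growth experiments. Here log2 of the processed signal minus the 75th percentile of each array was fitted with limma 3.58.1 in R 4.3.3 to the 9 T250 arrays (0, 1 and 4 d), without control spots, marked spots and probes not well above background. Calls needed p at most 0.01 before adjustment and a log2 ratio of size 1 or more, as in the study's methods, and Benjamini-Hochberg adjustment ran over all 25472 transcripts tested. Differences between the lines were fitted to the 12 arrays of 0 and 4 d of both lines. On data simulated for this comparison over 25472 transcripts, 167 of 200 transcripts changed by 2 on the log2 scale were recovered at the methods' threshold, with 203 false calls.

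Names came from gene symbols of a RefSeq table (2588 of 39372 transcripts) and from descriptions in the study's tables (899). The text names up to 15 leading transcripts per direction, by adjusted call and then by p, that have a description and are not singled out in the study's text, up to 4 called members of each list per direction, and all members of the N lists. A further 56 were chosen after their values were seen. The members and the lists were chosen with earlier results of these data known. Alternatives were other sets of arrays, the methods' t-test, blocks for replicate and slide, quantile and normexp normalization (offset 50), other filters, the authors' scaled values and leaving out each array. The fit to 12 arrays, the slide as a random block and normexp on median signals were added after seeing the data. The RNA of 3 pooled seedlings per array leaves the spread between single plants unmeasured, and cross-hybridization between near-identical genes was not checked. Columns of the authors' own comparisons were not used.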

Additional observations from a re-analysis of the deposited data

How the results depend on the processing

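Counts of called transcripts stayed within 1.5 times the 1004 reported with 6 arrays, 18 arrays, 17 arrays, 12 arrays, the replicate block, either slide block, quantile normalization, every filter and the authors' scaled values. The methods' t-test called 371 (181 up, 190 down, 1 after adjustment), and normexp called 471 with 94 down and 4 after adjustment. In place of 2, the transcripts past an adjusted p of 0.05 numbered 0 with the 6 arrays alone, 125 with all 18 arrays, 248 with 17 arrays, 237 with the 12 arrays of 0 and 4 d of both lines and 0 with the slide as a fixed block. Leaving out each array in turn gave 536 (without 4 d replicate 2) to 1600 (without 4 d replicate 3) calls, 203 to 711 up, 287 to 889 down, and 0 to 195 after adjustment (195 without 0 d replicate 1, 83 without 4 d replicate 3), and 0 to 104 differences between the lines. With the replicate number as a block, 1063 transcripts were called (476 up, 587 down) and 2 after adjustment. Deviations of 0 d and 4 d arrays with the same number correlated at 0.301, −0.231 and 0.378, and not every array correlated best with its own number. The labels do not say whether the same number marks the same growth experiment, and these values do not settle it. Those of 0 d and 1 d, which shared a slide, correlated at 0.369, 0.173 and 0.228, and those of 1 d and 4 d at 0.058, −0.057 and 0.062. The causes of these shifts were not tested.

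Of 126 named calls, 21 held under every alternative that gave a value. The slide as a fixed block called 879, of which 245 were among the 1004, and ended 80 named calls. Slides 2 and 3 held 1 T250 array each, so this fit rests on the 4 d array of replicate 1. Normexp ended 44, the methods' t-test 43, all 18 arrays 22, the replicate block 14, the 6 arrays alone 14, quantile normalization 10, and leaving out an array 13 to 34. Under normexp 13 turned from negative to positive ratios, where the median of all transcripts was 0.56, with 6 of them below this median and 7 above. They were AC197705.4_FGT008 (0.83), AC233853.1_FGT003 (0.26), GRMZM2G024705_T01 (0.62), GRMZM2G032276_T01 (0.46), GRMZM2G042412_T01 (0.07), GRMZM2G092391_T01 (0.49), GRMZM2G096269_T01 (0.37), GRMZM2G100931_T01 (0.98), GRMZM2G124455_T01 (0.09), GRMZM2G150731_T01 (1.07), GRMZM2G398795_T01 (1.12), GRMZM2G428179_T01 (1.19) and GRMZM2G451037_T01 (0.59). Among the calls, 29 upregulated transcripts were not well above background on any 0 d array and 28 downregulated ones on any 4 d array, and their folds are bounds.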
